A study of Mus musculus with 28 samples.

Results

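Endothelial cells (EC) of mouse embryos at E10.5 (E for embryonic day) were compared with those of the day before, E9.5, across all genes. The comparison rests on 6 of the 28 RNA sequencing libraries in the series, 3 from each day, chosen by their labels alone. Each library was made from 100 sorted cells of embryos of the genotype labelled 23GFP transgenic, which both days share. The tissue label changes with the day, from PAS+VU at E9.5 to AGM+VU at E10.5. The labels leave both terms unexpanded, and day and tissue cannot be told apart. The labels give no promoter for the transgene, no gate for the sort and no number of embryos behind a pool, and the study names no treatment. The design text calls the replicates biological without saying whether they came from separate embryos or litters. Each p-value therefore reflects how far such pools vary, which may be technical. This spread was estimated from all 28 libraries of the series and not from the 6 alone. The 6 libraries of hemogenic endothelium (HE), the endothelium from which blood cells arise, from the same 2 tissues and days were used for comparison. They carry the same genotype.

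Endothelium lines the vessels. At mid-gestation the dorsal aorta and the vessels around it begin to carry steady blood flow, arteries and veins acquire different gene programmes, and a minority of aortic cells leaves the wall as blood progenitors. Flow acts on endothelial cells through transcription factors of the Krüppel-like family and through immediate early genes. Lin28 proteins, high ribosome production and glycolysis are known features of early embryonic cells.

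Of 15238 genes tested, 116 (0.761%) differed between the days at an adjusted p under 0.05 (edgeR's quasi-likelihood test with Benjamini-Hochberg adjustment over all genes). At E10.5 47 genes (0.308%) were higher and 69 (0.453%) were lower. Genes that rose included *Nfia* and *Nfib*, *Klf4* and *Klf6*, *Dhrs3*, *Fos*, and the interferon-linked genes *Irf1*, *Gbp3* and *Sp110*. Genes that fell included *Nip7*, *Gnl3* and *Srm* of ribosome production and growth, and *Hk2*, *Slc2a3* and *Pgam1* of glycolysis. *H2-T23* and *Ifitm1*, interferon and antigen presentation genes, also fell, as did *Prtg*, *Bex1* and *Pcgf5*. All 3 libraries of one day lay beyond all 3 of the other for 115 of the 116 genes. Over all genes tested, 1410 (9.25%) had all 3 E10.5 libraries above and 1586 (10.4%) had all 3 below the E9.5 libraries, and at an unadjusted p under 0.05 the counts were 908 higher (5.96%) and 1070 lower (7.02%). Levels are in CPM, in which a library's counts are scaled to a common total and for library composition, in the order of replicates 1, 2 and 3. A log2 difference is always E10.5 minus E9.5, so that 1 stands for a doubling. Its standard error (SE) is the absolute log2 difference divided by the square root of edgeR's F statistic. It was thus derived from the test, and is approximate, above all for genes with few counts.

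**Figure D1:**
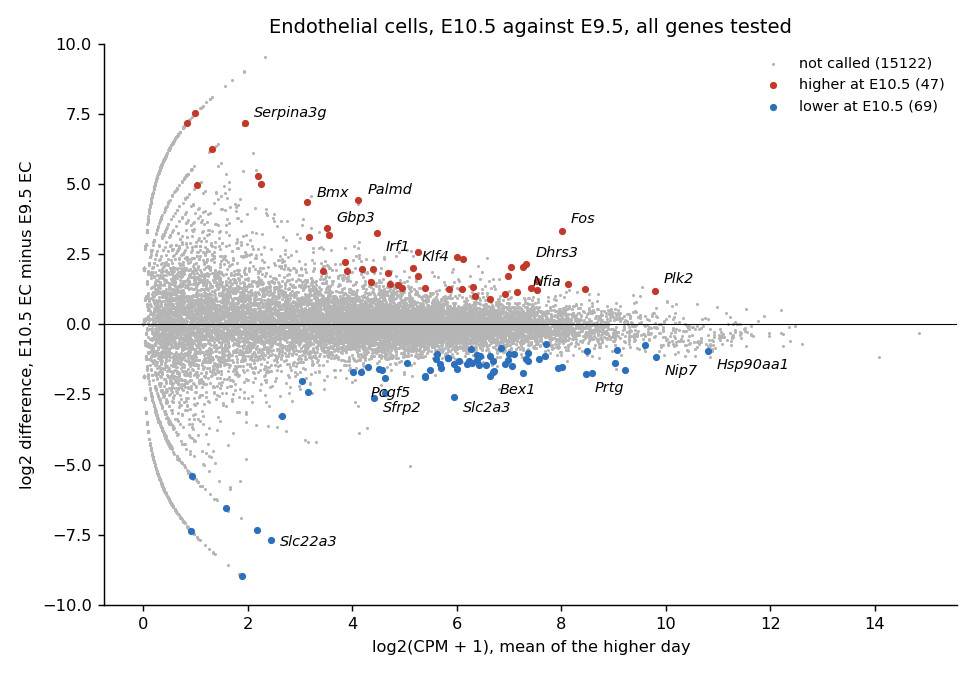
Log2 difference between E10.5 and E9.5 EC (y axis) against the mean level of the higher day as log2(CPM + 1) (x axis) for the 15238 genes tested. The 47 genes called higher are red, the 69 called lower are blue, and a few are named. Called genes with a low level have the largest differences.

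The number of called genes depended on single libraries. Without E9.5 replicate 1, 2 or 3 the fit called 37, 45 or 33 genes, and without E10.5 replicate 1, 2 or 3 it called 114, 26 or 36. Of the 116 genes, 16 kept their call in each of these 6 runs. The 7 higher ones were *Serpina3g*, *Dhrs3*, *Fos*, *Palmd*, *Sp110*, *Grn* and *Nfia*, and the 9 lower ones were *Bex1*, *Pcgf5*, *Slc22a3*, *Prkar2b*, *Mfsd11*, *Rassf2*, *Dcaf17*, *Gm14005* and *Bex4*. In none of the 6 runs were 24 of the 116 called. Under these 6 runs and 11 other alternatives no gene of the 116 changed direction where it was tested, and 107 of the 116 were tested in every one of them. With 115 of the 116 free of overlap between the days, leaving out libraries or rescaling could hardly turn a sign. The kept direction therefore says little about stability. The median SE of a log2 difference was 0.48 over all genes tested and 0.33 over genes with at least 10 CPM in the higher day.

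The 6 libraries held 16308918 to 25411270 counts, with 14307 to 15715 genes detected. Libraries of the same day correlated at 0.952 to 0.979 and those of different days at 0.948 to 0.966 (over log2 levels of genes, which do not count as replicates). No pair agreed within sampling noise. The endothelial label fitted the markers: the junction and receptor genes *Cdh5*, *Pecam1*, *Kdr* and *Tek* stood between 211 and 652 CPM in all 6 libraries. The leukocyte gene *Ptprc* reached at most 0.209 CPM, and hemoglobin genes took at most 0.00299% of counts. Other leukocyte markers were detected. The 15 tested macrophage and granulocyte genes summed to 41.6, 38.3 and 40.4 CPM at E9.5 and 45.8, 64.9 and 40.5 CPM at E10.5. Markers of mesenchyme and smooth muscle set 1 library of each day apart. Their summed level over 23 genes was 107, 123 and 675 CPM at E9.5 and 49.7, 435 and 62.1 CPM at E10.5. Collagen *Col1a1* stood at 0.374, 0.475 and 97.9 CPM at E9.5 and 0, 50.6 and 1.46 CPM at E10.5, and *Myh11* of smooth muscle was at 0 in the 4 libraries other than E9.5 replicate 3 and E10.5 replicate 2. Markers of germ cells were higher at E9.5, with a mean log2(CPM + 1) over 8 genes of 3.26, 3.43 and 3.07 against 2.55, 2.71 and 2.63, and so were cardiac markers, at 1.59, 1.77 and 2.07 against 1.17, 1.08 and 1.39 over 13 genes. *Dppa3* of germ cells, which missed the filter on low counts, had 44.5 CPM in E9.5 replicate 2 and at most 0.261 CPM elsewhere. No member of the 12 marker lists was called, and the part of these cells in the results below was not tested. In pools of cells, fewer cells of a type and less RNA per cell cannot be told apart. Without both E9.5 replicate 3 and E10.5 replicate 2, a choice made after seeing the data, 7 genes were called, among them *Serpina3g*, *Sp110*, *Bex1*, *Pcgf5*, *Slc22a3* and *Ifitm1* of the 116, and the other 110 lost their call.

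**Figure D2:**
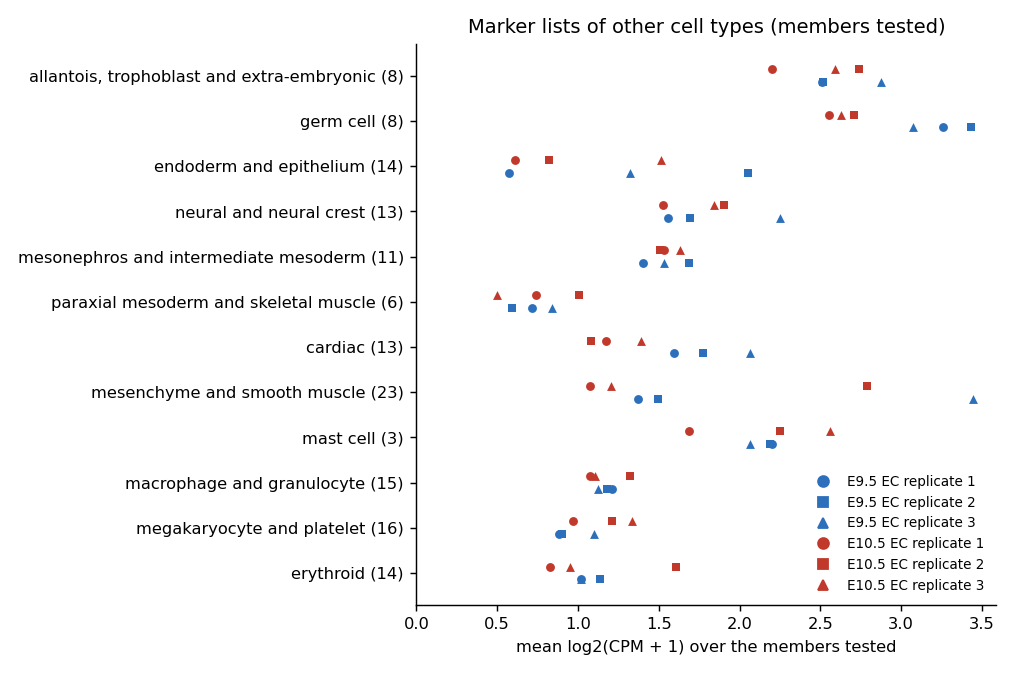
Mean log2(CPM + 1) over the tested members of 12 marker lists of other cell types (x axis), 1 point per EC library, with E9.5 in blue, E10.5 in red and the replicate number as the symbol. E9.5 replicate 3 and E10.5 replicate 2 stand to the right of the others in mesenchyme and smooth muscle. The germ cell list has all 3 E9.5 libraries above the E10.5 libraries.

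Transcription factors and vascular genes that rose included *Nfia*, a nuclear factor I protein that binds DNA as a dimer. *Nfia* (mm9 chr4:97248634-97785567) stood at 37.9, 35.1 and 40.01 CPM at E9.5 and at 150.5, 200.5 and 111 CPM at E10.5, so that the lowest E10.5 library had more than any E9.5 library. Its log2 difference was 2.03 ± 0.36 (SE, n = 3 against 3, edgeR adjusted p = 0.0066). The related *Nfib* (mm9 chr4:81936077-82151683) rose from 94.4, 74.0 and 67.5 to 136, 207 and 213 CPM, a log2 difference of 1.23 ± 0.26 (edgeR adjusted p = 0.02). In E8.5 EC, of PAS+VU and the same genotype, *Nfia* stood at 12.8 ± 8.89 CPM and *Nfib* at 23.8 ± 3.25 CPM (SD, n = 3). *Palmd*, which encodes the paralemmin family protein palmdelphin, went from 1.497, 0.518 and 0.219 to 17.8, 8.98 and 22.2 CPM (log2 difference 4.44 ± 0.73, edgeR adjusted p = 0.0066). *Dhrs3* (mm9 chr4:144482730-144517548), whose product turns retinaldehyde back to retinol and so limits retinoic acid, rose from 46.0, 37.7 and 24.9 to 141, 198 and 140.4 CPM. Its log2 difference of 2.14 ± 0.33 had an edgeR adjusted p of 0.0025. It was the only call among 19 retinoic acid genes (0.761% of all genes were called). The median log2 difference of these 19 was 0.31, and ran from 0.036 without E10.5 replicate 2 to 0.69 without E9.5 replicate 3. The retinoic acid receptor *Rarb* stood at 9.15, 5.96 and 14.3 CPM at E9.5 and 25.5, 29.6 and 32.4 CPM at E10.5 (edgeR adjusted p = 0.36), and *Cyp26a1*, which degrades retinoic acid, at 7.53, 4.66 and 12.8 CPM at E9.5 and 2.79, 0 and 1.71 CPM at E10.5 (edgeR adjusted p = 0.086). The call on *Nfib* was lost in 4 of the 6 runs without 1 library, with adjusted p up to 0.14 without E9.5 replicate 3.

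Of 25 genes of the flow response and vascular tone, 3 rose and none fell (0.308% and 0.453% of all genes). The median log2 difference of the list was 0.57, against 0 over all genes, and 8 members had an unadjusted p under 0.05, all higher (5.96% of all genes). *Klf4*, a factor induced by laminar flow, went from 8.32, 7.77 and 9.88 to 19.5, 44.1 and 40.8 CPM (log2 difference 2.01 ± 0.48, edgeR adjusted p = 0.046). *Klf6*, of the same family, rose from 139, 121 and 178 to 280.3, 322 and 453 CPM (log2 difference 1.27 ± 0.25, edgeR adjusted p = 0.015). *Pde3a*, a phosphodiesterase that breaks down cyclic AMP, was near the floor at E9.5, with 0, 0 and 0.262 CPM, and stood at 0.086, 5.90 and 4.72 CPM at E10.5. E10.5 replicate 1 thus lay within the E9.5 range, and *Pde3a* was the 1 called gene whose days overlapped. The endothelin receptor gene *Ednrb* had 23.0, 35.1 and 41.6 CPM at E9.5 and 65.3, 136 and 107 CPM at E10.5 without passing the test (edgeR adjusted p = 0.07). The same held for *Cav1*, the main protein of caveolae, at 20.5, 12.8 and 21.7 CPM at E9.5 and 117, 124 and 43.1 CPM at E10.5 (edgeR adjusted p = 0.33). *Sdpr*, which encodes another caveolar coat protein and is in no list, rose from 5.32, 7.60 and 5.86 to 14.7, 68.9 and 28.3 CPM (log2 difference 2.57 ± 0.62, edgeR adjusted p = 0.045). The flow factor *Klf2* had a log2 difference of 0.47 ± 0.39. Without 1 library at a time, adjusted p reached 0.18 without E10.5 replicate 2 for *Klf4*, 0.097 without E10.5 replicate 3 for *Klf6*, 0.17 without E9.5 replicate 1 for *Pde3a* and 0.28 without E10.5 replicate 2 for *Sdpr*. Without both libraries rich in mesenchymal markers none of the 25 was called, and the median was 0.68. The part of flow itself in these values was not tested.

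Arterial identity showed 1 call. *Bmx*, a Tec family kinase of arterial endothelium, went from 0.0416, 0.0432 and 1.05 CPM to 2.79, 15.3 and 5.38 CPM (log2 difference 4.36 ± 0.97, edgeR adjusted p = 0.03, up to 0.17 without E10.5 replicate 2). It was the only 1 of 29 arterial and Notch genes to be called (0.761% of all genes), and the list median was 0.38. That median was -0.07 without E10.5 replicate 2, so its direction rests on that library, 0.18 without E9.5 replicate 2, and 0.18 without both libraries rich in mesenchymal markers. The gap junction gene *Gja4* stood at 72.7, 63.6 and 60.1 CPM at E9.5 and 153, 226 and 122 CPM at E10.5 (log2 difference 1.35 ± 0.36, edgeR adjusted p = 0.071), without overlap of the days. *Gja5* had 10.48, 11.1 and 28.6 CPM at E9.5 and 23.6, 54.2 and 19.3 CPM at E10.5, which overlapped. None of 16 venous and lymphatic genes passed. The venous factor *Nr2f2* stood at 448, 526 and 495 CPM at E9.5 and 921, 569 and 546 CPM at E10.5, and the lymphatic factor *Prox1* at 0.915, 0.0432 and 2.32 CPM at E9.5 and 8.43, 4.33 and 5.48 CPM at E10.5, in both cases with all E10.5 libraries above all E9.5 libraries (edgeR adjusted p = 0.84 and 0.53). None of 39 pan-endothelial genes was called either. Of these, 16 had all E10.5 libraries above all E9.5 libraries and 1 had them all below (9.25% and 10.4% of all genes), and the median log2 difference was 0.27. *Egfl7*, which encodes a secreted endothelial protein, had 361, 322 and 267 CPM at E9.5 and 745, 555 and 689.9 CPM at E10.5 (edgeR adjusted p = 0.075), and the sialomucin gene *Emcn* had 574, 675 and 557 CPM at E9.5 and 1232, 874 and 1000 CPM at E10.5 (edgeR adjusted p = 0.44). *Lmo2* and *Tal1*, which share a DNA-binding complex in endothelium and blood, stood at 151 ± 51.8 CPM at E9.5 and 67.8 ± 6.60 CPM at E10.5 and at 34.2 ± 9.44 CPM at E9.5 and 18.4 ± 5.79 CPM at E10.5 (SD, n = 3, edgeR adjusted p = 0.12 and 0.19). The blood factor *Runx1* stayed low, at 3.12, 3.37 and 3.76 CPM at E9.5 and 1.80, 2.50 and 2.21 CPM at E10.5. None of the 27 blood transcription factors was called.

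**Figure D3:**
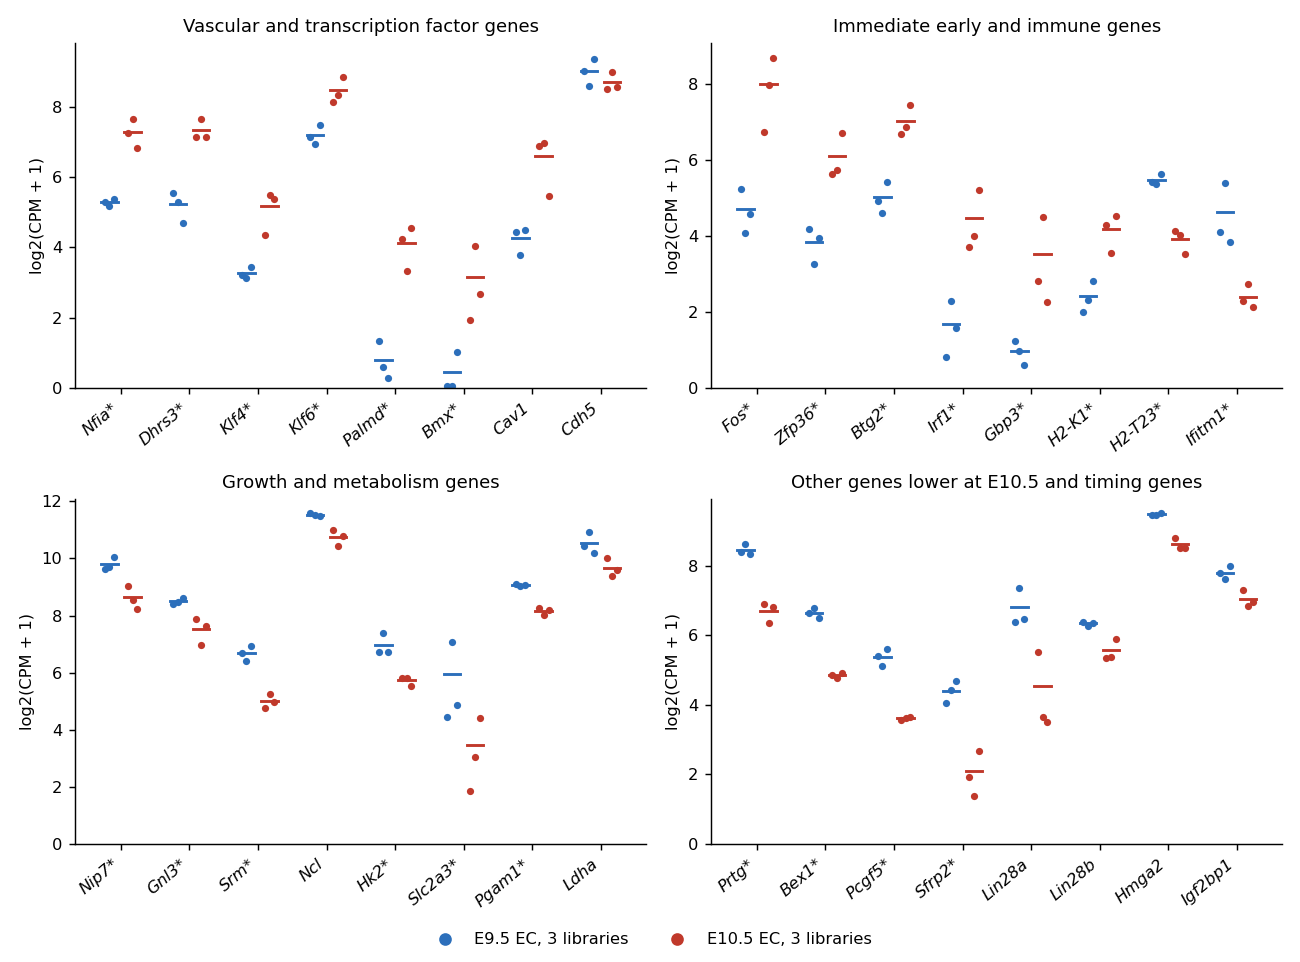
Level of 32 genes in each EC library as log2(CPM + 1) (y axis), 1 point per library, with E9.5 in blue, E10.5 in red and a short bar at the log2 of the group mean plus 1. An asterisk marks genes with an adjusted p under 0.05. For *Nfia*, *Dhrs3*, *Fos*, *Bex1* and *Pcgf5* the 2 groups of points are apart, and for *Cdh5* they overlap.

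Of 37 immediate early and stress genes, 3 were higher at E10.5 and 1 heat shock gene was lower (0.308% and 0.453% of all genes). Cells transcribe immediate early genes within minutes of a stimulus. *Fos* (mm9 chr12:86814851-86818219), a subunit of the AP-1 factor, stood at 36.8, 15.9 and 22.9 CPM at E9.5 and at 106, 252 and 413 CPM at E10.5. The 3 E10.5 libraries differed among themselves by several fold, and all lay above the E9.5 libraries (log2 difference 3.35 ± 0.57, edgeR adjusted p = 0.0057). *Zfp36*, whose product marks messenger RNAs for decay, rose from 17.2, 8.59 and 14.5 to 48.8, 52.4 and 104 CPM (log2 difference 2.35 ± 0.54, edgeR adjusted p = 0.035). *Btg2*, an antiproliferative gene, rose from 29.1, 23.6 and 41.8 to 102, 116 and 175 CPM (log2 difference 2.05 ± 0.41, edgeR adjusted p = 0.015). In all 3 genes E10.5 replicate 3 was the highest library. *Fosb* had the same order, at 6.45, 3.24 and 7.04 CPM at E9.5 and 16.03, 29.2 and 56.7 CPM at E10.5, without passing the test (edgeR adjusted p = 0.14). The median log2 difference of the list was 0.53, and 8 members were higher and 2 lower at an unadjusted p under 0.05 (5.96% and 7.02% of all genes). Without both libraries rich in mesenchymal markers none of the list was called, and the median was 0.84. *Hsp90aa1*, the stress-inducible cytosolic Hsp90 chaperone, fell from 1623, 1907 and 1829 to 956, 899.6 and 924 CPM (log2 difference -0.95 ± 0.17, edgeR adjusted p = 0.0066), with little spread within a day. Adjusted p reached 0.17 without E10.5 replicate 3 for *Zfp36*, 0.087 without E9.5 replicate 2 for *Btg2* and 0.051 without E10.5 replicate 2 for *Hsp90aa1*.

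Interferon and antigen presentation genes had the highest median of the 25 gene lists under the main filter on low counts, 0.92 on the log2 scale over 69 members tested. Of these 3 rose and 2 fell (0.308% and 0.453% of all genes). At an unadjusted p under 0.05, 23 were higher and 3 lower, against 5.96% and 7.02% of all genes. With at least 10 CPM in 3 libraries the median was 0.52 over 41 members. That was below the cholesterol and lipid (0.64), flow (0.58), and immediate early and stress (0.56) lists under that filter. A pair of DNA motifs is known from promoters of this response, the interferon-stimulated response element (ISRE), bound by Irf proteins, and the gamma-activated site (GAS). The 250 bases before the start of 4 called genes are shown from RefSeq on build GRCm38.p6, in the direction of transcription, because 2 of these genes rose and 2 fell and each holds a match to 1 of these motifs. Capitals mark, on either strand, matches to the ISRE core (GAAA, then any 2 bases, then GAAA again) or to the GAS (TTCNNNGAA).
*Irf1*, rose, chr11:53769764-53770013, plus strand: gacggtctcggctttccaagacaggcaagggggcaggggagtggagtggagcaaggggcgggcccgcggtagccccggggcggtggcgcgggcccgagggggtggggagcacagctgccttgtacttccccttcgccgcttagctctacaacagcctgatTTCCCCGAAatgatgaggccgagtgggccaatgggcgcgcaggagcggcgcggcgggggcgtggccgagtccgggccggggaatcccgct
*Gbp3*, rose, chr3:142559794-142560043, plus strand: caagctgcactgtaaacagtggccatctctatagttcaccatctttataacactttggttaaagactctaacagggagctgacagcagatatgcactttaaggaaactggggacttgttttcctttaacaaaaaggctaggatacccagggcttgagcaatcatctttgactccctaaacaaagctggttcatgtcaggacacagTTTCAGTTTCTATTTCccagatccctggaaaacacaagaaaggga
*H2-T23*, fell, chr17:36032702-36032951, minus strand: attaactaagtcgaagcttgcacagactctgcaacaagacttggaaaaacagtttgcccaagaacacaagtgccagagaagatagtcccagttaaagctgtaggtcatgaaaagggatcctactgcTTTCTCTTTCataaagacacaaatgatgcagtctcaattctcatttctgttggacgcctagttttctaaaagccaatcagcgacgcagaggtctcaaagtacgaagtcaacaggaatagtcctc
*Slfn5*, fell, chr11:82951852-82952101, plus strand: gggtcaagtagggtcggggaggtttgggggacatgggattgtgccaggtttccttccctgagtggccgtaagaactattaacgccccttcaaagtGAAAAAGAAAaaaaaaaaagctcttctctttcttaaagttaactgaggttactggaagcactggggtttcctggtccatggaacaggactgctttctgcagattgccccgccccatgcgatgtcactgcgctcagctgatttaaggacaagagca
The capitals in *Irf1* are a GAS match and those in the other 3 are ISRE core matches, with 2 overlapping matches in *Gbp3*. Of 11308 tested genes with a promoter entry, from 250 bases before to 50 after the start, 336 (2.97%) held the ISRE core and 792 (7.0%) the GAS. Over all 27025 promoters the shares were 3.49% and 8.47%, and 139 held both. Among 34 higher genes with an entry 5 held the ISRE core (14.7%) and 5 the GAS, and among 53 lower genes 5 (9.43%) and 2 (3.77%) did. A match describes letters and not a bound site, and no test was made of these shares.

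*Irf1*, an interferon-induced transcription factor, stood at 0.749, 3.88 and 1.97 CPM at E9.5 and at 12.1, 15.1 and 36.4 CPM at E10.5 (log2 difference 3.27 ± 0.80, edgeR adjusted p = 0.048). *Gbp3*, a guanylate-binding GTPase of cell-autonomous defence, had 1.37, 0.95 and 0.525 CPM at E9.5 and 6.06, 21.5 and 3.82 CPM at E10.5, with E10.5 replicate 2 well above its fellows (log2 difference 3.45 ± 0.76, edgeR adjusted p = 0.026). *H2-K1*, a classical class I antigen-presenting gene, rose from 2.99, 4.01 and 5.99 to 18.8, 10.7 and 21.96 CPM (log2 difference 1.98 ± 0.42, edgeR adjusted p = 0.023). Its reads may be shared with the near-identical *H2-D1*, which makes its value uncertain. *Sp110*, a nuclear body gene induced by interferon, is outside the list and went from 0.333, 1.47 and 1.79 to 10.3, 7.57 and 14.6 CPM (log2 difference 3.17 ± 0.56, edgeR adjusted p = 0.0066). *Serpina3g*, a serine protease inhibitor gene with near copies beside it, had 1 count over the 3 E9.5 libraries and 186 counts at E10.5, a ratio, after scaling for depth, of 209 (95% counting interval 37.1 to 8305, edgeR adjusted p = 0.00048). Classical interferon-stimulated genes that did not pass the test included the next 2. *Usp18*, which restrains interferon receptor signalling, had no counts at E9.5 and 3.78, 0.0522 and 8.19 CPM at E10.5, and *Ddx58*, the viral RNA sensor RIG-I, had 2.41, 0.82 and 0.962 CPM at E9.5 and 3.48, 12.8 and 12.3 CPM at E10.5 (edgeR adjusted p = 0.07 and 0.071).

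The 2 list members that fell were *H2-T23* and *Ifitm1*. *Slfn5*, *Tnfsf10*, *Xaf1* and *Nlrp1a* also fell and are outside the list, and they are placed here as immune genes after their values were seen. *H2-T23*, a non-classical class I gene, went from 42.4, 40.4 and 48.7 to 16.5, 15.3 and 10.6 CPM (log2 difference -1.63 ± 0.33, edgeR adjusted p = 0.015). *Slfn5*, a Schlafen gene, fell from 541, 533 and 708 to 254, 198 and 125 CPM (log2 difference -1.63 ± 0.32, edgeR adjusted p = 0.015). *Ifitm1* fell from 16.3, 41.3 and 13.4 to 3.87, 5.64 and 3.42 CPM (log2 difference -2.46 ± 0.44, edgeR adjusted p = 0.007); Ifitm genes are near copies of each other, and Ifitm1 also marks early mesoderm and germ cells. *Tnfsf10*, the death ligand TRAIL, fell from 120.2 ± 23.8 to 44.9 ± 14.1 CPM, *Xaf1* from 104 ± 31.7 to 32.8 ± 17.5 CPM and the inflammasome gene *Nlrp1a* from 22.9 ± 3.86 to 7.42 ± 1.62 CPM (SD, n = 3, edgeR adjusted p = 0.028, 0.048 and 0.024). Without 1 library, adjusted p reached 0.23 without E9.5 replicate 3 for *Irf1*, 0.21 without E10.5 replicate 2 for *Gbp3*, 0.13 without E9.5 replicate 1 for *H2-K1*, 0.097 without E10.5 replicate 3 for *H2-T23*, 0.097 without E10.5 replicate 3 for *Slfn5*, 0.07 without E9.5 replicate 2 for *Ifitm1*, 0.17 without E10.5 replicate 2 for *Tnfsf10*, 0.22 without E10.5 replicate 2 for *Xaf1* and 0.14 without E9.5 replicate 3 for *Nlrp1a*. Without both libraries rich in mesenchymal markers *Ifitm1* was the 1 list member called, and the median was 1.09. That run kept E9.5 replicate 2, which had the most *Ifitm1* (41.3 CPM) and *Dppa3* of germ cells at 44.5 CPM. With only the 9 EC libraries in the fit the list median was 0.68, with 2 lower calls and no higher one. Of 15 macrophage and granulocyte markers tested none was called, 2 were higher and 0 lower at an unadjusted p under 0.05 (5.96% and 7.02% of all genes), and their median was 0.58. Their summed level was 41.6, 38.3 and 40.4 CPM at E9.5 and 45.8, 64.9 and 40.5 CPM at E10.5. The 2 were *Aif1*, with no counts at E9.5 and 0.043, 1.30 and 1.51 CPM at E10.5, and *Laptm5*, with 19.1, 15.5 and 16.2 CPM at E9.5 and 30.4, 37.6 and 22.9 CPM at E10.5. With at least 10 CPM in 3 libraries the median of the macrophage and granulocyte markers was 0.32 over 10 members. Without both libraries rich in mesenchymal markers it was 0.10 over 17 members, with 1 called lower. The part of such cells in these results was not tested.

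Further called genes that rose have different functions. *Grn*, the progranulin gene, was tight on both days, at 16.1, 15.8 and 18.0 CPM at E9.5 and 36.9, 43.5 and 42.7 CPM at E10.5 (log2 difference 1.30 ± 0.24, edgeR adjusted p = 0.007). The lysosomal protease gene *Ctsb* rose from 87.7, 131 and 91.1 to 336, 266 and 235 CPM (log2 difference 1.44 ± 0.31, edgeR adjusted p = 0.026). *Entpd1*, which encodes the ectonucleotidase CD39 that clears extracellular ATP, rose from 16.8, 5.09 and 14.4 to 62.1, 56.9 and 70.9 CPM (log2 difference 2.39 ± 0.50, edgeR adjusted p = 0.023). *Rab27a*, a GTPase of regulated secretion, rose from 6.91 ± 1.36 to 24.9 ± 5.26 CPM, and *Srgn*, the granule proteoglycan serglycin, from 5.14 ± 2.52 to 20.2 ± 1.83 CPM (SD, n = 3, edgeR adjusted p = 0.007 and 0.028). The mitochondrial carrier gene *Ucp2* rose from 11.3 ± 2.89 to 37.3 ± 16.2 CPM and the kinase gene *Plk2* from 385 ± 13.0 to 887 ± 115 CPM (SD, n = 3, edgeR adjusted p = 0.026 and 0.015). *Lgals9*, the galectin 9 gene, had 0.0416, 0.691 and 2.06 CPM at E9.5 and 11.3, 4.44 and 8.44 CPM at E10.5 (edgeR adjusted p = 0.049). Among 58 matrix genes 1 rose (0.308% of all genes). The elastin gene *Eln* had no counts at E9.5 and 49 counts over the E10.5 libraries, at least 18.4-fold higher when 3 counts stand in for the E9.5 group, with 0.688, 0.157 and 1.51 CPM. Adjusted p reached 0.15 without E9.5 replicate 3 for *Ctsb*, 0.11 without E9.5 replicate 2 for *Entpd1*, 0.062 without E9.5 replicate 3 for *Rab27a*, 0.13 without E9.5 replicate 2 for *Srgn*, 0.17 without E10.5 replicate 2 for *Ucp2*, 0.081 without E10.5 replicate 3 for *Plk2*, 0.18 without E9.5 replicate 1 for *Lgals9* and 0.2 without E9.5 replicate 3 for *Eln*.

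Of 48 ribosome biogenesis and Myc genes, 3 fell and none rose (0.453% and 0.308% of all genes). Their median log2 difference was -0.51, and at an unadjusted p under 0.05 there were 21 lower members and no higher one, against 7.02% lower over all genes. *Nip7* (mm9 chr8:109580777-109584828), which acts in maturation of the large ribosomal subunit, fell from 782, 830.2 and 1071 to 519, 373 and 297 CPM (log2 difference -1.17 ± 0.28, edgeR adjusted p = 0.04). *Gnl3*, the nucleolar GTPase nucleostemin, fell from 340.0, 356 and 387 to 235, 124 and 196 CPM (log2 difference -0.96 ± 0.22, edgeR adjusted p = 0.03). *Srm*, the spermidine synthase gene and a Myc target, fell from 102, 84.0 and 120.1 to 25.8, 37.3 and 30.4 CPM (log2 difference -1.71 ± 0.35, edgeR adjusted p = 0.019). The nucleolar genes *Ncl* and *Nop58* stood at 2952 ± 143 CPM at E9.5 and 1722 ± 336 CPM at E10.5 and at 520.2 ± 33.4 CPM at E9.5 and 315 ± 59.8 CPM at E10.5 (SD, n = 3), with edgeR adjusted p of 0.063 and 0.077. *Mycn*, the Myc family member of early embryos, had 66.0, 51.7 and 93.5 CPM at E9.5 and 24.3, 29.8 and 41.8 CPM at E10.5 (edgeR adjusted p = 0.11). Outside the list, 2 genes of small RNA and tRNA processing fell: *Naf1*, an assembly factor of H/ACA particles, from 25.4, 18.9 and 21.4 to 8.47, 7.46 and 6.08 CPM, and *Pop5*, of ribonuclease P, from 31.0, 21.0 and 18.8 to 8.12, 4.38 and 6.48 CPM (edgeR adjusted p = 0.045 and 0.039). Ribosomal protein genes took 12.7%, 13.5% and 14.1% of counts at E9.5 and 12.7%, 8.49% and 9.49% at E10.5, so E10.5 replicate 1 equalled the lowest E9.5 library to 3 digits. The part of that share in these results was not tested. Without 1 library, adjusted p reached 0.22 without E9.5 replicate 3 for *Nip7*, 0.2 without E10.5 replicate 2 for *Gnl3*, 0.096 without E9.5 replicate 3 for *Srm*, 0.18 without E10.5 replicate 3 for *Naf1* and 0.2 without E10.5 replicate 2 for *Pop5*. Without both libraries rich in mesenchymal markers none of the list was called, and the median was -0.46.

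Of 41 glycolysis and hypoxia genes, 3 fell and none rose (0.453% and 0.308% of all genes). Their median log2 difference was -0.59, and 18 members were lower and 2 higher at an unadjusted p under 0.05 (7.02% and 5.96% of all genes). Without E9.5 replicate 2 the median was -0.38 and no member was called. *Hk2*, hexokinase 2, fell from 105, 167 and 105 to 55.7, 55.6 and 44.8 CPM (log2 difference -1.27 ± 0.26, edgeR adjusted p = 0.019). *Slc2a3*, a high-affinity glucose transporter, fell from 20.9, 133 and 28.2 to 2.62, 7.20 and 20.4 CPM, with E9.5 replicate 2 several fold above the rest (log2 difference -2.59 ± 0.57, edgeR adjusted p = 0.028). *Pgam1*, phosphoglycerate mutase, fell from 549, 529 and 536 to 309, 257 and 292 CPM with a small spread (log2 difference -0.91 ± 0.20, edgeR adjusted p = 0.026). *Ldha*, *Pgk1* and *Pdk1* did not pass, with means of 1504 ± 409.9 CPM at E9.5 and 818 ± 184 CPM at E10.5, 1209 ± 345 CPM at E9.5 and 604 ± 164 CPM at E10.5, and 112 ± 33.4 CPM at E9.5 and 49.7 ± 23.5 CPM at E10.5 (SD, n = 3, edgeR adjusted p = 0.091, 0.11 and 0.13). Of 74 genes of oxidative phosphorylation 1 fell (0.453% of all genes), and the list median was -0.25. It was the complex IV subunit gene *Cox5a*, which went from 219.6, 157 and 80.1 to 53.4, 28.2 and 55.0 CPM (log2 difference -1.74 ± 0.38, edgeR adjusted p = 0.027). The mean log2(CPM + 1) of the oxidative phosphorylation list was 7.98, 8.19 and 8.01 at E9.5 and 8.34, 7.51 and 7.60 at E10.5, so that E10.5 replicate 1 lay above and the other 2 below every E9.5 library. The median was -0.58 without E10.5 replicate 1, -0.08 without replicate 2 and -0.09 without replicate 3. A further 2 mitochondrial genes fell outside the lists: *Tomm20*, an import receptor, from 189 ± 21.2 to 80.9 ± 24.05 CPM, and *Crls1*, cardiolipin synthase, from 32.1 ± 1.92 to 12.2 ± 3.23 CPM (SD, n = 3, edgeR adjusted p = 0.021 and 0.033). Adjusted p reached 0.11 without E9.5 replicate 2 for *Hk2*, 0.29 without E9.5 replicate 2 for *Slc2a3*, 0.16 without E10.5 replicate 2 for *Pgam1*, 0.17 without E10.5 replicate 2 for *Cox5a*, 0.15 without E10.5 replicate 2 for *Tomm20* and 0.19 without E10.5 replicate 2 for *Crls1*. Without both libraries rich in mesenchymal markers none of the glycolysis list was called, and the median was -0.46.

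Cholesterol and lipid synthesis stood on the other side of 0. None of its 34 genes was called, yet the median log2 difference was 0.62, 13 members were higher and 1 lower at an unadjusted p under 0.05 (5.96% and 7.02% of all genes), and 15 had all E10.5 libraries above all E9.5 libraries (9.25% of all genes). *Sqle*, squalene epoxidase, had 67.8, 74.4 and 58.2 CPM at E9.5 and 106, 139 and 128 CPM at E10.5, and *Mvk*, mevalonate kinase, 17.5, 6.86 and 8.44 CPM at E9.5 and 43.8, 24.3 and 27.7 CPM at E10.5 (edgeR adjusted p = 0.077 and 0.13). Of the 15238 genes DESeq2 called 216 higher, 4 of them here, and limma voom called 428 higher, 7 of them here. Neither method called a member of this list lower.

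**Figure D4:**
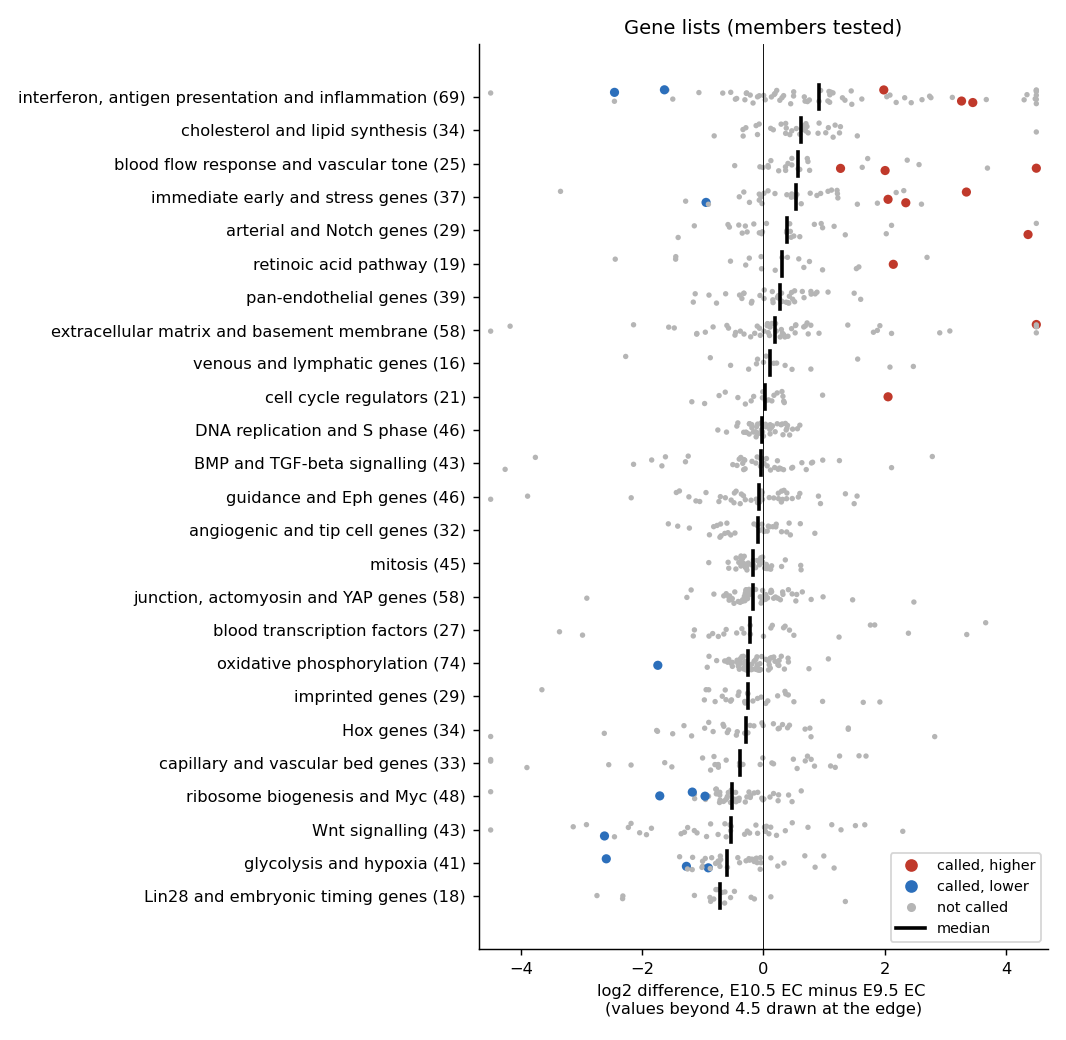
Log2 difference between E10.5 and E9.5 EC (x axis) for each tested member of 25 gene lists (rows, number tested in parentheses). Red and blue points are called higher and lower, grey points are not called, and black bars are list medians, which run from -0.72 for Lin28 and embryonic timing genes to 0.92 for interferon and antigen presentation genes.

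Embryonic timing genes had the lowest median of the 25 gene lists under the main filter, -0.72 over 18 members, without a call by edgeR. With at least 10 CPM in 3 libraries it was -0.66, against -0.68 for glycolysis. The cardiac and germ cell marker lists had medians of -1.02 and -0.97 under the main filter. With at least 10 CPM in 3 libraries these were -0.99 over 5 members and -0.49 over 4. At an unadjusted p under 0.05, 10 of the 18 timing genes were lower and 1 was higher, against 7.02% and 5.96% of all genes. Of the 15238 genes limma voom called 526 lower, 5 of them here, and DESeq2 called 202 lower, 3 of them here. The mean log2(CPM + 1) of the list was 5.78, 5.68 and 5.53 in E8.5 EC and 5.77, 5.92 and 5.65 at E9.5. It was 5.12, 5.06 and 5.17 at E10.5, so the list as a whole was not lower at E9.5 than at E8.5. *Lin28a*, which blocks maturation of let-7 microRNAs, had 82.6, 164 and 88.7 CPM at E9.5 and 45.2, 11.5 and 10.3 CPM at E10.5 (edgeR adjusted p = 0.24), after 316 ± 62.0 CPM (SD, n = 3) in E8.5 EC. The highest of these, E9.5 replicate 2, also stood apart in germ cell and pluripotency genes below the filter, with *Dppa3* at 44.5 CPM, *Utf1* at 3.37 CPM, *Pou5f1* at 3.065 CPM and *Sox2* at 2.89 CPM, each at most 0.261 CPM in the other 5 EC libraries, and the part of this library in the list was not tested. *Lin28b* had 82.6, 76.8 and 81.4 CPM at E9.5 and 40.1, 41.0 and 58.6 CPM at E10.5 (edgeR adjusted p = 0.24). The let-7 targets *Hmga2* and *Igf2bp1* had 707, 713 and 738 CPM at E9.5 and 446, 365 and 368 CPM at E10.5 and 223, 195 and 253 CPM at E9.5 and 158, 114 and 124 CPM at E10.5, without overlap (edgeR adjusted p = 0.11 and 0.065). *Sall4*, which the germ cell marker list shares, had 117, 134 and 82.9 CPM at E9.5 and 74.0, 82.4 and 51.6 CPM at E10.5 (edgeR adjusted p = 0.32).

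Most of the next group of genes that fell lie outside the lists. *Bex1* (mm9 chrX:132748511-132750052), of an X-linked family of small adaptor proteins, went from 99.0, 109 and 89.0 to 28.2, 26.6 and 29.1 CPM, with no E10.5 library near the E9.5 range (log2 difference -1.82 ± 0.25, edgeR adjusted p = 0.00048). *Bex4*, of the same family, fell from 75.9, 73.5 and 66.9 to 33.8, 21.3 and 25.5 CPM (log2 difference -1.42 ± 0.24, edgeR adjusted p = 0.0057). *Pcgf5* (mm9 chr19:36453557-36530694), which encodes a subunit of a Polycomb repressive complex, fell from 41.4, 33.5 and 48.0 to 10.9, 11.2 and 11.6 CPM (log2 difference -1.86 ± 0.26, edgeR adjusted p = 0.00048). *Prtg*, protogenin, a receptor of the early embryo's mesoderm and neural tissue, fell from 334, 399 and 323 to 119.6, 81.6 and 111 CPM (log2 difference -1.76 ± 0.33, edgeR adjusted p = 0.011, up to 0.081 without E10.5 replicate 2), after 247 ± 51.8 CPM (SD, n = 3) in E8.5 EC. *Prkar2b*, a regulatory subunit of protein kinase A, fell from 47.9, 39.7 and 35.6 to 8.25, 10.8 and 15.6 CPM (log2 difference -1.83 ± 0.30, edgeR adjusted p = 0.0051). The organic cation transporter gene *Slc22a3* had 310 counts over the E9.5 libraries and 1 count at E10.5, a ratio, after scaling for depth, of 276 (95% counting interval 49.1 to 10923, edgeR adjusted p = 0.00048). *Sfrp2*, a secreted Wnt modulator, was the 1 call among 43 Wnt genes (0.761% of all genes were called). It fell from 15.5, 20.5 and 25.0 to 2.84, 1.62 and 5.43 CPM (log2 difference -2.62 ± 0.52, edgeR adjusted p = 0.015, up to 0.1 without E10.5 replicate 2). *Dsp*, the desmosome protein desmoplakin, fell from 7.11, 3.58 and 5.29 to 0.043, 0.626 and 1.00 CPM (edgeR adjusted p = 0.024, up to 0.1 without E10.5 replicate 2).

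No member of the replication and mitosis lists was called. *Sgol2*, a centromere cohesion gene outside these lists, fell from 93.2, 117 and 131 to 55.9, 67.2 and 65.7 CPM (edgeR adjusted p = 0.046, up to 0.27 without E9.5 replicate 3). The median log2 difference of 46 replication genes was -0.03. Of 45 mitosis genes 11 had all E10.5 libraries below all E9.5 libraries and 1 had them above (10.4% and 9.25% of all genes), and the median was -0.17. The regulator *Btg2*, described above, was the 1 call among 21 cell cycle regulators (0.761% of all genes were called). *Ccna2*, cyclin A2, had 119, 112 and 130.1 CPM at E9.5 and 73.8, 47.7 and 71.4 CPM at E10.5 (edgeR adjusted p = 0.1), and *Ccnd1*, cyclin D1, 243, 194 and 314 CPM at E9.5 and 169, 89.3 and 125 CPM at E10.5 (edgeR adjusted p = 0.14). There were also no calls by edgeR among 32 angiogenic and tip cell genes, 33 genes of capillaries and vascular beds, 34 Hox genes, 29 imprinted genes, 43 genes of BMP and TGF-beta signalling, 46 guidance and Eph genes, and 58 junction, actomyosin and YAP genes. Their medians lay between -0.39 and -0.05. In the capillary list 8 genes were lower and 1 higher at an unadjusted p under 0.05 (7.02% and 5.96% of all genes). Among them was *Car4*, a carbonic anhydrase of capillary surfaces, with 4.03, 41.8 and 54.3 CPM at E9.5 and 0.258, 0.574 and 2.16 CPM at E10.5 (edgeR adjusted p = 0.075).

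The same day difference was measured in HE, in libraries not shared with the EC comparison but within the same model. Deviations from the group mean correlated between same-numbered EC and HE libraries at 0.105, 0.279 and 0.263 at E9.5. At E10.5 they correlated at 0.264, 0.178 and 0.0824, so the day differences of EC and HE may not be independent. In HE, 555 genes (3.64%) were called. Of the 116 genes called in EC, 110 (94.8%) had the same sign in HE, against 67.0% of all genes tested, and 76 were also called there, 65.5% of the EC calls and 13.7% of the HE calls. The median log2 difference of the 47 higher genes was 1.97 in EC and 1.64 in HE, and that of the 69 lower genes was -1.44 in EC and -1.25 in HE. The list medians in HE were -0.56 for ribosome biogenesis and Myc, -0.68 for glycolysis and hypoxia, and 1.04 for interferon and antigen presentation, with 10, 12 and 7 members called. In the cholesterol list the HE median was 0.17. A test of the difference itself, (E10.5 EC minus E9.5 EC) minus (E10.5 HE minus E9.5 HE), called 2 genes of 15238 (0.0131%), *Oit3* and *Spry1*, and 837 (5.49%) had an unadjusted p under 0.05. Neither of the 2 was called within EC, and the count was 0 with a replicate block and 57 with same-numbered EC and HE libraries of a day as a block, chosen after seeing the data. Falls in EC without a fall of like size in HE included *Bex1* (HE log2 difference -0.32), *Sfrp2* (0.12), *Ifitm1* (0.29), *Dsp* (1.27) and *Gsta4* (0.73), a glutathione transferase gene that fell in EC from 50.3, 51.4 and 48.6 to 22.8, 14.6 and 19.6 CPM (edgeR adjusted p = 0.035, up to 0.19 without E10.5 replicate 2). The difference between EC and HE did not pass the test for any of these 5, with edgeR adjusted p of 0.22, 0.3, 0.19, 0.15 and 0.18. *Dhrs3*, *Klf6* and *Plk2*, called in EC, had HE log2 differences of 0.81, 0.68 and 0.56 that were not called (edgeR adjusted p = 0.18, 0.13 and 0.2), and their differences between EC and HE did not pass either (edgeR adjusted p = 0.58, 1 and 0.94).

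**Figure D5:**
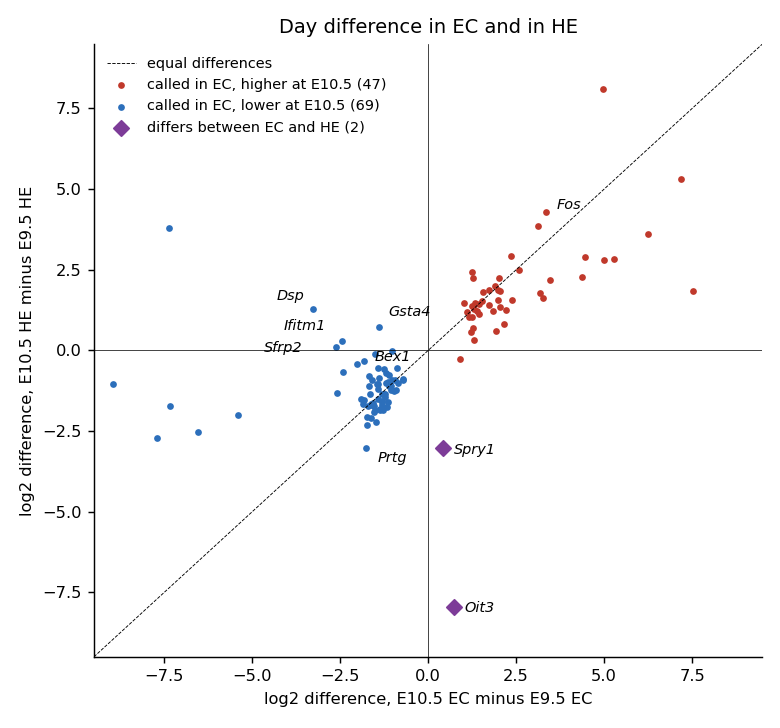
Log2 difference between the days in HE (y axis) against that in EC (x axis) for the 47 genes called higher (red) and the 69 called lower (blue) in EC. Purple diamonds are the 2 genes whose day difference differs between EC and HE. The dashed line marks equal differences, and 110 of the 116 points lie in the quadrants of equal sign.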

How the data were processed

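Per the labels' protocols, polyA RNA of 100-cell pools was amplified with the SMARTer Ultra Low Input kit. The authors deposited raw counts per gene symbol with mm9 coordinates, per the file headers. The submitters' processing notes list TopHat, SAMtools, Subread, featureCounts 1.6.2 and mm9. Whether strand was used, how multiply mapped reads were counted and which annotation served is not given in the sources used here, so values of near-identical or overlapping genes are uncertain.

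Of 24015 genes, 15238 were kept by filterByExpr (minimum count 10) in edgeR 4.0.16 under R 4.3.3. TMM scaled the libraries. The quasi-likelihood fit took in all 28 of them, each population having its own coefficient (common biological coefficient of variation 0.563). All populations thus shared 1 estimate of the spread. A fit of the 6 EC libraries alone called 167 genes, and a fit of the 9 EC libraries alone called 52, against 116. EC totals ran from 16308918 to 25411270 counts, and 3 counts equal 0.125 to 0.157 CPM in these libraries. Genes with an adjusted p (Benjamini-Hochberg) under 0.05 were called. Intervals and floors cover counting error only. Lists are described by counts and medians. The comparison, the gene lists and the rule for naming genes were chosen with earlier results of these data known. That rule took the 20 largest rises and 20 largest falls among called genes of at least 10 CPM without overlap, up to 4 members per list with the smallest p, a panel of 34 genes and 10 genes for the difference between EC and HE. *Bex4*, *Cav1*, *Col1a1*, *Crls1*, *Ctsb*, *Dcaf17*, *Ddx58*, *Dppa3*, *Fosb*, *Gm14005*, *Grn*, *H2-D1*, *Lgals9*, *Lin28a*, *Myh11*, *Nfib*, *Nop58*, *Pdk1*, *Pgk1*, *Plk2*, *Pou5f1*, *Rassf2*, *Serpina3g*, *Sgol2*, *Slc22a3*, *Sox2*, *Tnfsf10*, *Tomm20*, *Usp18* and *Utf1* were named after their values were seen. Promoters came from RefSeq on GRCm38.p6, matched by symbol for 87 of the 116 called genes, with the first entry of a symbol used. Alternatives were DESeq2 1.42.0, limma 3.58.1 voom with quality weights, other scalings and filters, fewer libraries, a fold minimum and a replicate block.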

Additional observations from a re-analysis of the deposited data

Results flagged for a closer look

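Of 15238 genes, 2 differed in their change from E9.5 to E10.5 between EC and HE by a test of that difference. *Oit3* (mm9 chr10:58885708-58904527) stood at 7.69, 13.5 and 4.72 CPM in E9.5 EC and 9.28, 25.8 and 7.64 CPM in E10.5 EC, and at 11.9, 6.85 and 5.86 CPM in E9.5 HE and 0.072, 0 and 0 CPM in E10.5 HE. Its log2 difference was 0.72 ± 0.77 (SE) in EC and -7.95 in HE. The difference between these was 8.67 ± 1.49 (SE, edgeR adjusted p = 0.04), and with E10.5 HE near the floor the fitted value depends on the prior count and is no bound. *Spry1* (mm9 chr3:37538872-37543521), which encodes an inhibitor of receptor tyrosine kinase signalling, stood at 20, 13.6 and 13.3 and 23.6, 16.3 and 23.0 CPM in EC and at 8.79, 13.4 and 15.9 and 2.59, 0.884 and 1.14 CPM in HE. Its log2 difference was 0.42 ± 0.41 (SE) in EC and -3.03 in HE, and the difference between these was 3.45 ± 0.61 (SE, edgeR adjusted p = 0.04). In HE all 3 E10.5 libraries were below all 3 E9.5 libraries for both genes, and in EC the days overlapped. The count of such genes was 0 without E9.5 EC replicate 1 or 3, E10.5 EC replicate 1, E9.5 HE replicate 2, or E10.5 HE replicate 2 or 3, and with a replicate block, and 57 with same-numbered EC and HE libraries of a day as a block.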

How the results depend on the processing

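The count of called genes moved with the test, the libraries and the filter. Against 116 genes, edgeR called 9 against a minimum fold of 1.5, 184 with at least 10 CPM in 3 libraries, 52 with the 9 EC libraries alone and 7 without E9.5 EC replicate 3 and E10.5 EC replicate 2. limma voom called 954 and DESeq2 418, and 108 of the 116 were called by both. The 47 higher calls became 5, 81, 12, 2, 428 and 216 in these 6 settings, in the same order, 82 without a filter and 92 with the 6 EC libraries alone. The 69 lower calls became 4, 40, 5, 526 and 202 with the minimum fold, the 9 libraries, the 2 libraries left out, limma voom and DESeq2. Calls among list members, 23, became 2, 11, 2, 115 and 62 in those 5 settings. Leaving out 1 EC library gave 26 to 114 calls, 12 to 41 higher and 11 to 73 lower, and 6 to 26 among list members. Genes that differ between EC and HE, 2, became 10 without a filter, 48 with limma voom, 40 with DESeq2 and 0 to 3 without 1 of the 12 libraries. Scaling by DESeq2 size factors or upper quartiles moved the median of all genes by 0.036 on the log2 scale and gave 114 and 106 calls. The replicate number did not pair the EC libraries, since deviations of same-numbered libraries correlated at -0.111, -0.121 and 0.00159. With a replicate block 169 genes were called, 64 higher and 105 lower, 108 of them shared with the 116, and 0 genes differed between EC and HE. With same-numbered EC and HE libraries of a day as a block in those 12 libraries, an alternative chosen after seeing the data, 57 genes differed. Deviations of these pairs correlated at 0.105, 0.279 and 0.263 at E9.5 and at 0.264, 0.178 and 0.0824 at E10.5, and every library correlated best with its own number, a hint from the data and not the design. Among the genes named here, signs turned for 5, none of them called in EC, and the cause was not tested. Without 1 library *Kdr* ran from -0.0223 to 0.446, *Oit3* from -0.0263 to 1.20 and *Pecam1* from -0.0438 to 0.477, and with both doubted libraries left out *Oit3* was at -0.31 and *Pecam1* at 0.601. The marker gene *Col1a1* ran from -5.51 to 5.36 without 1 library and was at 0.77 without both, and *Myh11* ran from -7.46 to 7.45 and was at 0 without both, 0.0265 with DESeq2 size factors, 0.667 with the replicate block and 0.0286 with DESeq2. At these totals 3 counts are 0.125 to 0.157 CPM, so a gene below that level in a library rests on fewer than 3 counts there.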
